A study of Mus musculus with 20 samples.

Results

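Solute carriers (SLC) are membrane proteins that move amino acids, sugars, metals, ions, nucleotide sugars and other small solutes, either down their gradients or coupled to the gradient of another ion. Here their transcripts were measured in LbetaT2 cells, a mouse gonadotrope line that came from a pituitary tumour of a transgenic animal, during stimulation with gonadotropin-releasing hormone (GnRH). A probe set of the Affymetrix array was taken where its single annotated symbol began with Slc and a number, Slc2a1 left out, and where its signal was above 427 on at least 2 of the 20 arrays. The rule kept 124 of 184 SLC probe sets, which stand for 110 of 150 SLC genes, among 8494 probe sets kept of 12488. The values that decided on each member were signal levels. A probe set can pass through the groups where it is high, and 5 of the 124 were above 427 on neither unstimulated array, namely Slc6a4 (99040_at), Slc34a1, Slc38a4, Slc2a3 (92292_at) and Slc4a8. Just inside the threshold lay Slc2a4 (102314_at), Slc34a1 and Slc2a3 (92292_at), whose second-highest signals were 435.2, 457 and 464.8. Just outside lay Slc7a6 (99863_at), a second probe set of Slc2a4 (162385_i_at) and Slc6a12, at 424.3, 416.4 and 414.9.

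The cells were grown on microcarrier beads, kept in serum-free medium and perifused for 4 h. The 10 groups held 2 arrays each. Unstimulated cells received no GnRH. At 100 nM, cells received 1, 2, 4 or 8 pulses of 2 min or a tonic supply, and at 10 nM 1, 4 or 8 pulses or a tonic supply. Repeated pulses came at intervals of 118 min (2 pulses), 58 min (4 pulses) or 28 min (8 pulses). Every group was the same cell line, with no genetic difference named between groups, and 1 immortalised line stands in for the gonadotropes of an animal. Sample titles set the groups. In 8 of the 20 samples the title and the separate entries for pulse number and concentration disagreed, and with groups taken from those entries limma called 0 of the 124 SLC probe sets, and 0 of all 8494, in each of the 10 comparisons (4 SLC probe sets at an unadjusted p under 0.05 for 100 nM against unstimulated cells, and 1 to 17 over the 10 comparisons). Every result below rests on the titles.

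GnRH is released from the hypothalamus in pulses. Its receptor on gonadotropes is coupled to the Gq protein, calcium release, protein kinase C and the mitogen-activated kinases, and the pulse rate sets the balance of the gonadotropin subunits that the cells make. SLC families feed this kind of secretory cell at several levels. Slc3a2 with Slc7a5 imports large neutral amino acids, the Slc30 proteins move zinc out of the cytosol into vesicles or out of the cell and the Slc39 proteins bring it in, the Slc35 proteins bring nucleotide sugars and the sulfate donor into the Golgi apparatus and the endoplasmic reticulum for glycoprotein processing, and the Slc25 proteins exchange metabolites across the inner mitochondrial membrane.

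Promoter windows from RefSeq, 250 bases before to 50 bases after an annotated gene start (build GRCm38.p6), matched 91 of the 110 genes by symbol. Those of 6 genes are shown because their members carry the main changes below: Slc6a4, Slc30a4 and Slc35e4 were higher with GnRH at 100 nM, Slc39a3 and Slc35b2 were lower, and Slc25a25, chosen after its values were seen, was higher and has a cyclic AMP response element. Sequences run 5′ to 3′ on the gene's strand. Capitals mark the matches to the motifs searched on both strands: EGR (GCGTGGGCG and GCGGGGGCG), cyclic AMP response (TGACGTCA), AP-1 (TGANTCA), ATF4 amino acid response (TGATGNAA) and NRF2 antioxidant response (TGACNNNGC).
Slc6a4 (chr11:76998347-76998646, plus strand): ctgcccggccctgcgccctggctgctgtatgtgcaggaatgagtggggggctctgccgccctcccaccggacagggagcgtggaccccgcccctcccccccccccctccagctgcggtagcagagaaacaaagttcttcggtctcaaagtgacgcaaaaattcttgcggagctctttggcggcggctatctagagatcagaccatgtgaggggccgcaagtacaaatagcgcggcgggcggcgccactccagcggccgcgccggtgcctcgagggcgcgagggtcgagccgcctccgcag
Slc30a4 (chr2:122702614-122702913, minus strand): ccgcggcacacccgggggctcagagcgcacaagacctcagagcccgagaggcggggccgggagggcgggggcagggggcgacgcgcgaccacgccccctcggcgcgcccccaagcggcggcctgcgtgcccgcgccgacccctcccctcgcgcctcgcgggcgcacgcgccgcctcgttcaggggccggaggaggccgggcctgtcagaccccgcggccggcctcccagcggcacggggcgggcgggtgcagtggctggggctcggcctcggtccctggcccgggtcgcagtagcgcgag
Slc35e4 (chr11:3914615-3914914, minus strand): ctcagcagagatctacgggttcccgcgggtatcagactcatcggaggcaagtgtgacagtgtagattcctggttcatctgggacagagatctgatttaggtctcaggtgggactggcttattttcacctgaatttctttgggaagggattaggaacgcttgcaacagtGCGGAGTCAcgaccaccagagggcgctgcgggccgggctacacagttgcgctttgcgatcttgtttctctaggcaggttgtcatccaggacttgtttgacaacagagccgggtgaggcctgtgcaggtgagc
Slc25a25 (chr2:32424017-32424316, minus strand, 1 of 3 windows of the gene): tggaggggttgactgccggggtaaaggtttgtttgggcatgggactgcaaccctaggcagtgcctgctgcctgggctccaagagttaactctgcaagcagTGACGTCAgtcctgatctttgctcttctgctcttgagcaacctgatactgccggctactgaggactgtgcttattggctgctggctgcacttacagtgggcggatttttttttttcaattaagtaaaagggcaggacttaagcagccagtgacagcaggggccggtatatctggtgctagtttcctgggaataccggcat
Slc39a3 (chr10:81037266-81037565, minus strand): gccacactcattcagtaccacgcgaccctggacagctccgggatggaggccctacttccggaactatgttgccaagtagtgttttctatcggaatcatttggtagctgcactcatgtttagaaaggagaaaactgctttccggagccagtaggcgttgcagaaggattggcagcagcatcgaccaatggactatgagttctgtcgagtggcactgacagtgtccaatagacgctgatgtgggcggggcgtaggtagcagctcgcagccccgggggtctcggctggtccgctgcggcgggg
Slc35b2 (chr17:45563686-45563985, plus strand): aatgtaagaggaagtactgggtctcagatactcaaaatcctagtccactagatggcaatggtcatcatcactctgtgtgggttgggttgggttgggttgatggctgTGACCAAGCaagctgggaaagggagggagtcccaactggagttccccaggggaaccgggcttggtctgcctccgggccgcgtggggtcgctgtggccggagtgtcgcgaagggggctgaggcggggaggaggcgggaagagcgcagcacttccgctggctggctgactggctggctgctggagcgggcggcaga

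The Slc6a4, Slc30a4 and Slc39a3 windows held none of the motifs. Slc35e4 and Slc35b2 each held 1 NRF2 match, starting 82 bases before the gene start on the minus strand of the window for Slc35e4 and 144 bases before it on the plus strand for Slc35b2. The Slc25a25 window shown held 1 cyclic AMP response element, starting 150 bases before the gene start. Over the SLC genes with a window, the NRF2 letters were found in 22 of 91 (24.2%, against 14% of 27025 genes), the AP-1 letters in 4 (4.4%, against 8.97%), the ATF4 letters in 3 (3.3%, against 4.51%) and the cyclic AMP response element in 2 (2.2%, against 2.03%), Slc25a25 and Slc25a36. The EGR form GCGTGGGCG was in 5 genes (5.49%, against 0.707%), Slc25a1, Slc25a14, Slc25a39, Slc29a1 and Slc7a6. None of them passed the threshold for 100 nM against unstimulated cells. Slc25a1 (94807_at), Slc25a14 and Slc25a39 were lower at 100 nM than at 10 nM (limma, adjusted p = 0.0178, 0.00574 and 0.0262), where dose and array letter cannot be told apart. These calls were lost without the 3 arrays of highest Gapdh ratio described below, with log2 differences of -0.31, -0.45 and -0.21. The other Slc25a1 probe set, 162358_i_at, gave -0.19 (adjusted p = 0.248). Slc25a14 was also lower with tonic hormone at 100 nM (adjusted p = 0.0234), a call lost after quantile normalisation (0.06) and with equal array medians (0.0565). The form GCGGGGGCG was in 5 as well (5.49%, against 3.31%), of which Slc30a9 passed for 100 nM against unstimulated cells. A match says only that the letters are in the window. The TGA that opens the AP-1 and NRF2 letters is shared, so 1 stretch can count for both.

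Arrays had been scaled to a trimmed mean of 2501 to 2502 and their median signals lay between 705 and 836. Replicate arrays correlated at 0.963 to 0.981 over all kept probe sets. The ratio of the 3′ to the 5′ control probe set of Gapdh, a sign of RNA quality, was 1.69 for the A array of 8 pulses at 100 nM and 1.21 and 1.23 for the 4-pulse arrays at 100 nM, and 0.9 to 1.08 on the other 17 arrays. Refits without these 3 arrays are given below. They also lack the whole 4-pulse group at 100 nM and the A array of 8 pulses, so their comparisons cover fewer patterns. RNA quality cannot be told apart from those patterns there, and its part in the results was not tested. Letters A and D mark the arrays of 100 nM and of unstimulated cells, and B and C those of 10 nM, so that at 10 nM letter and treatment cannot be told apart. Of 6 gonadotrope marker genes, 5 passed the signal rule, with summed signals of 197667 to 220768 in unstimulated cells, 212750 to 298520 at 100 nM and 213411 to 254778 at 10 nM. Fshb, which did not pass, gave 167 to 452. Summed markers of other pituitary cells, with 3 of 5 genes kept, gave 4090 to 4180, 3037 to 4391 and 3323 to 4375 in the same order. Gh, at 2141 to 3134, and Ghrhr, at 450 to 927, were kept, as was Prl, at 93.4 to 696, with Pomc and Tshb below the rule. Summed macrophage markers gave 1733 to 2454, 1928 to 4685 and 1530 to 3398, with Cd68 kept at 286 to 3157 and Ptprc at 4.42 to 125. Csf1r was kept too, at 236 to 651 and 427 to 869 in its 2 probe sets. Summed fibroblast markers, with 2 of 3 genes kept, gave 5863 to 5955, 4860 to 6547 and 5146 to 6845. Summed endothelium markers, with 2 of 3 genes kept, gave 6869 to 7320, 4831 to 9408 and 4674 to 8801. The labels do not say whether the arrays of a group came from separate cultures, so that p-values measure only the spread between these samples. Bulk RNA cannot tell fewer cells from less RNA per cell.

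At 100 nM, over its 5 delivery patterns, 16 of the 124 SLC probe sets differed from unstimulated cells, 7 higher and 9 lower, which is 12.9% against 14.2% of all 8494 (limma, Benjamini-Hochberg adjusted p under 0.05). Over all probe sets, 6.37% were higher and 7.84% lower. A share so near the background is no result about SLC genes as a class. The median log2 change was -0.07 for SLC probe sets and -0.05 for all. By substrate class, metal carriers held 6 of the 16 calls, 4 higher and 2 lower of 18 tested, and mitochondrial carriers held 4, with 1 higher and 3 lower of 22. Sugar carriers held 2 of 8, both lower, nucleoside and nucleotide sugar carriers held 1 higher and 1 lower of 12, neurotransmitter carriers held 1 higher of 12, and lipid and choline carriers held 1 lower of 8. Amino acid (15 tested), ion (12), organic ion and peptide (8), vitamin (5), phosphate (2) and carboxylate (2) carriers held 0 each. After quantile normalisation the split was 9 higher and 8 lower. Leaving out the unstimulated A array left 5 calls, and leaving out the unstimulated D array 4.

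**Figure D1:**
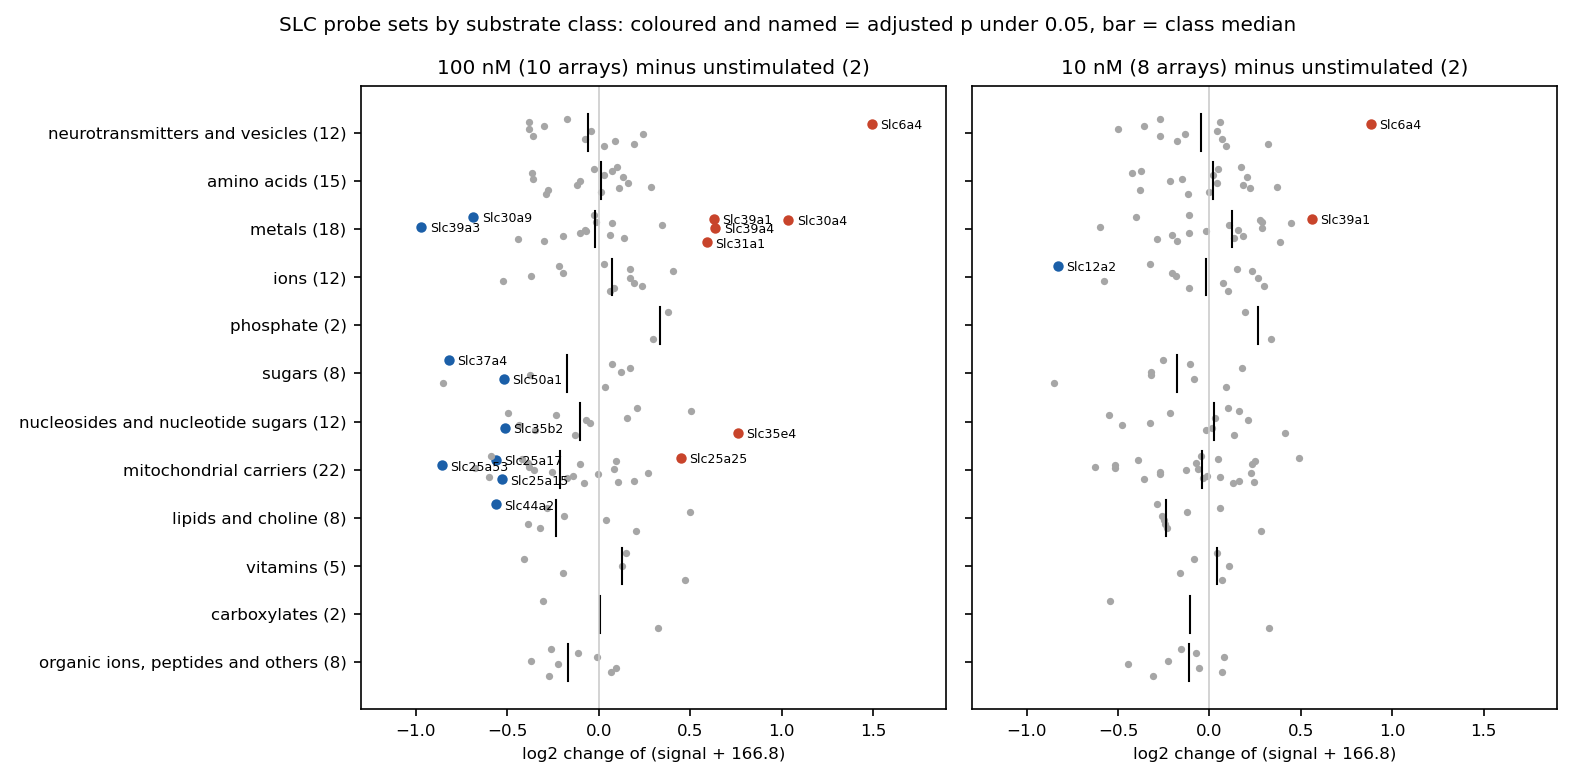
The log2 change of every SLC probe set, by substrate class, at 100 nM (10 arrays, left) and 10 nM (8 arrays, right) against 2 unstimulated arrays; points past adjusted p 0.05 are coloured and named, and the bar is the class median. At 100 nM the most shifted points are Slc6a4 and the metal carrier Slc30a4 on the higher side and the metal carrier Slc39a3 on the lower. At 10 nM the named points are Slc6a4 and Slc39a1 on the higher side and Slc12a2 on the lower.

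The serotonin transporter gene Slc6a4 had the largest change of the members at 100 nM, in a probe set that is a member only through the arrays where it is high. It was above 427 on 9 arrays, all of them with 4 or 8 pulses or tonic hormone at 100 nM or with 8 pulses or tonic hormone at 10 nM, so its rank among the members supports nothing. Its probe set 99040_at read 75.7 and 67.1 on the unstimulated arrays, with 1 pulse at 100 nM 120 and 88.1, with 2 pulses 110 and 232, with 4 pulses 587 and 611, with 8 pulses 1131 and 1201, and with tonic hormone 1414 and 1220. All 10 arrays at 100 nM lay above both unstimulated arrays. The log2 change was 1.49 ± 0.20 (SE) over the 5 patterns (limma, adjusted p = 8.38e-05) and 2.64 ± 0.26 for tonic hormone (adjusted p = 1.37e-06). At 10 nM it read 106 and 111 (1 pulse), 64.5 and 128 (4 pulses), 409 and 464 (8 pulses) and 636 and 753 (tonic), a log2 change of 0.88 ± 0.20 over the 4 patterns (adjusted p = 0.0347). Its call at 100 nM held without any single array (adjusted p at most 0.00531), while its call at 10 nM did not hold without either unstimulated array (adjusted p up to 0.215). The unstimulated signals are under the level of the filter, so fold changes rest on low values. With a floor in place of the added constant the log2 changes were 2.60 at 100 nM, 4.20 with tonic hormone and 1.71 at 10 nM, and with no filter on signal the adjusted p at 100 nM was 8.89e-05.

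A second Slc6a4 probe set, 161695_f_at, whose suffix marks probes that may match other transcripts, behaved differently. It read 858 and 573 in unstimulated cells and 446 to 1082 at 100 nM, which overlap, and its log2 change was 0.09 ± 0.17 (limma, adjusted p = 0.788) at 100 nM and 0.32 ± 0.23 (adjusted p = 0.352) with tonic hormone. The other neurotransmitter and vesicle carriers did not pass the threshold for 100 nM against unstimulated cells. Slc32a1, the vesicular carrier of GABA and glycine, was one of the 5 members of highest mean signal. It read 12718 and 10355 without GnRH and 7799 to 14795 at 100 nM. Its group means ran from 14301 with 1 pulse to 8440 with tonic hormone at 100 nM, and from 15410 to 10093 at 10 nM. It passed for any difference among the 10 groups (limma). Slc6a6, the taurine transporter, had log2 changes of -0.36 and -0.38 in its 2 probe sets (adjusted p = 0.52 and 0.354).

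**Figure D2:**
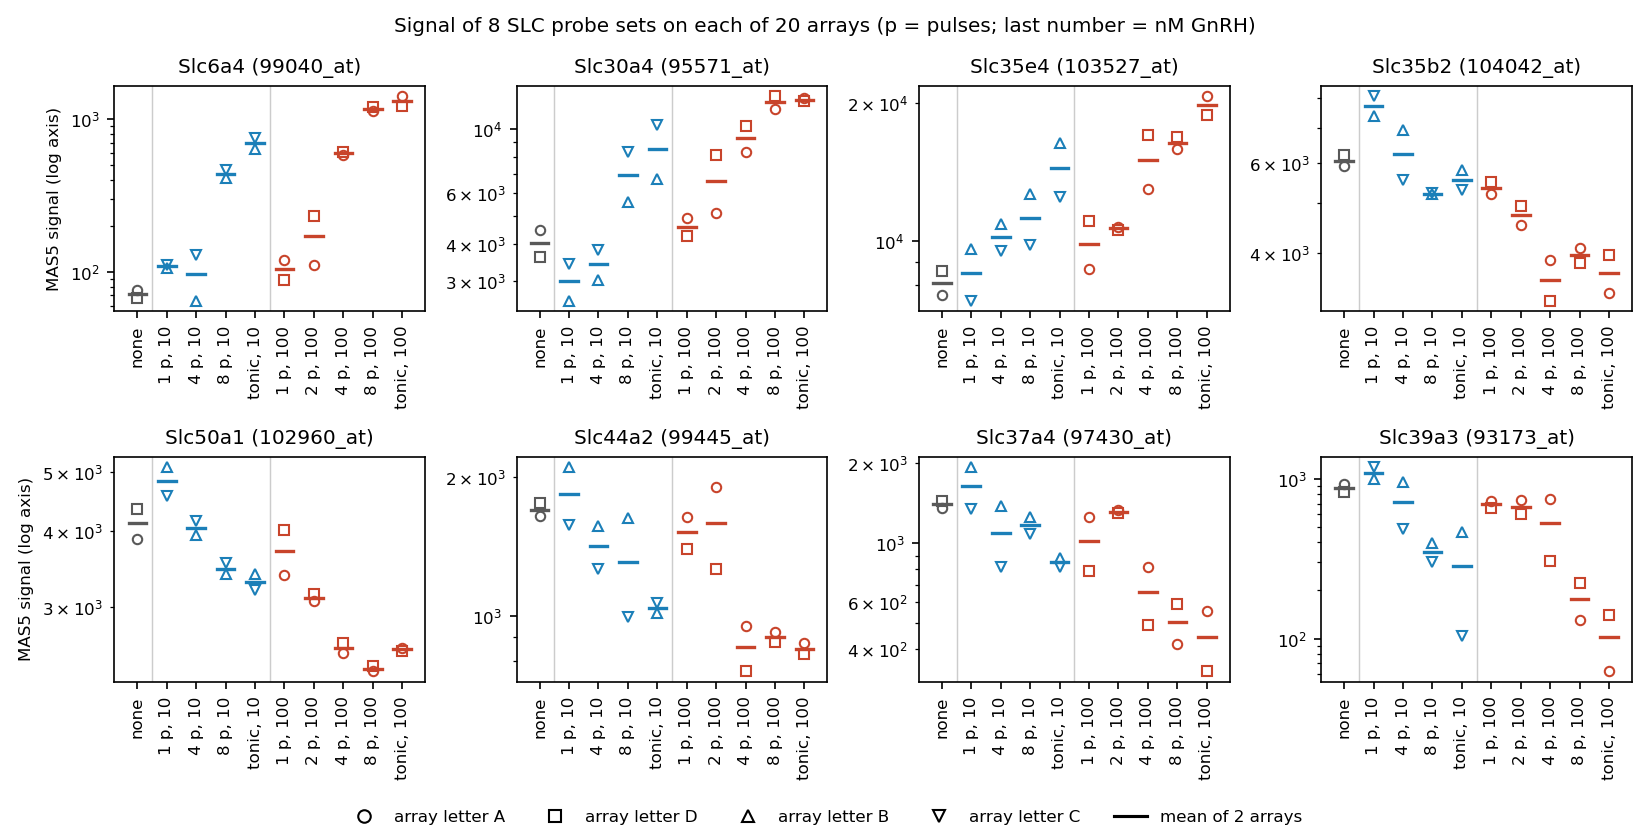
Signal on a log axis, on every array, of the 8 SLC probe sets past the threshold in the comparisons of 100 nM and tonic 100 nM with unstimulated cells and in the slope at 100 nM, with unstimulated cells in grey, 10 nM in blue and 100 nM in red; symbols give the array letter and the line is the mean of 2 arrays. Slc6a4 runs from 75.7 and 67.1 without GnRH to 1414 and 1220 with tonic 100 nM, and Slc39a3 from 932 and 823 to 62.3 and 141.

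Zinc and copper carriers moved in both directions. Slc30a4, which loads zinc into vesicles, read 4473 and 3619 on the unstimulated arrays, with 1, 2, 4 and 8 pulses at 100 nM 4949 and 4265, 5119 and 8098, 8319 and 10188, and 11677 and 12927, and with tonic hormone 12728 and 12448. Of the 10 arrays at 100 nM, 9 lay above both unstimulated ones, and the log2 change was 1.04 ± 0.19 (limma, adjusted p = 0.00145). At 10 nM it was lower than unstimulated cells on 3 of 8 arrays and higher on 4, between 2559 and 10254. Slc39a1, a zinc importer of the plasma membrane, read 2884 and 2633 without GnRH, 3344 to 5708 at 100 nM and 2903 to 5762 at 10 nM, so that all 18 stimulated arrays were higher, with log2 changes of 0.63 ± 0.13 (adjusted p = 0.00386) and 0.56 ± 0.14 (adjusted p = 0.0393).

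Slc31a1, the high-affinity copper importer, read 7987 and 8913 in probe set 101877_at without GnRH and 11242 to 15245 at 100 nM, with no overlap, and rose by 0.59 ± 0.13 on the log2 scale (limma, adjusted p = 0.00559). Its other probe set, 103845_at, gave -0.07 (adjusted p = 0.727), so its probe sets disagree. Slc39a4, a zinc importer, rose by 0.64 ± 0.19 in probe set 162284_r_at (adjusted p = 0.0276), where the unstimulated arrays read 2123 and 1189, while its other probe set 97320_at gave -0.02 (adjusted p = 0.957). Slc39a3, a zinc importer, fell. It read 932 and 823 without GnRH, 728 and 655 with 1 pulse, 738 and 603 with 2, 751 and 308 with 4, 130 and 224 with 8, and 62.3 and 141 with tonic hormone at 100 nM. All 10 arrays were lower than both unstimulated ones, with a log2 change of -0.97 ± 0.29 (adjusted p = 0.032). Slc30a9, a member of the zinc exporter family, was lower on all 10 arrays too, between 1543 and 3117 against 4339 and 3195, with a log2 change of -0.69 ± 0.15 (adjusted p = 0.00578). Slc11a2, the divalent iron importer, and Slc30a1, a zinc exporter of the plasma membrane, did not pass at 100 nM, with log2 changes of -0.44 and -0.07 for the 2 probe sets of Slc11a2 (adjusted p = 0.119 and 0.791) and 0.35 ± 0.19 for Slc30a1 (adjusted p = 0.253). With the array letter fitted as a replicate block, Slc11a2 passed in 102642_at (limma, adjusted p = 0.0186). Without the unstimulated A array, Slc31a1 and Slc30a9 lost their calls (adjusted p = 0.103 and 0.17), without D Slc30a4, Slc39a1 and Slc39a4 did (0.0591, 0.0886 and 0.576), and Slc39a3 lost its own without either (up to 0.206) and with no filter on signal (0.06). Slc39a4 also lost its call without the 3 arrays of highest Gapdh ratio (0.0956).

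Slc35e4, an orphan member of the nucleotide sugar transporter family, read 7605 and 8584 without GnRH and 8664 and 11037, 10746 and 10573, 12940 and 17000, and 15842 and 16802 with 1, 2, 4 and 8 pulses at 100 nM. With tonic hormone it read 20649 and 18820, and all 10 arrays lay above both unstimulated ones. The log2 change was 0.76 ± 0.15 (limma, adjusted p = 0.00228). Slc35b2, which carries the sulfate donor PAPS into the Golgi apparatus, went the other way, from 5895 and 6205 to 3229 to 5491 at 100 nM, with a log2 change of -0.51 ± 0.12 (adjusted p = 0.00802). Its 10 nM arrays spread from 5211 to 8073, with a log2 change of 0.01 ± 0.12 (adjusted p = 0.971). Slc35a1, the CMP-sialic acid carrier, and Slc29a1, a nucleoside transporter, gave -0.44 ± 0.24 (adjusted p = 0.245) and -0.23 ± 0.21 (adjusted p = 0.52). With the letter as a replicate block, Slc35a1 passed (limma, adjusted p = 0.0455). The call of Slc35e4 was lost without unstimulated A (adjusted p = 0.0595), and that of Slc35b2 without either unstimulated array (up to 0.121).

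Of the sugar carriers, Slc37a4, the glucose-6-phosphate transporter of the endoplasmic reticulum, read 1358 and 1448 without GnRH and 330 to 1333 at 100 nM, lower on all 10 arrays. Its log2 change was -0.82 ± 0.22 (limma, adjusted p = 0.0158). Slc50a1, a sugar efflux carrier, read 3880 and 4343 without GnRH and 2347 to 4011 at 100 nM, below both on 9 of 10 arrays, with a log2 change of -0.52 ± 0.11 (adjusted p = 0.00504). The neuronal-type glucose transporter Slc2a3 did not pass in either probe set (0.17 ± 0.34 and 0.07 ± 0.23, adjusted p = 0.796 and 0.885). Slc37a4 lost its call without either unstimulated array (adjusted p up to 0.157), and Slc50a1 without D (0.122).

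Most mitochondrial carriers had a negative change. At 100 nM 16 of 22 probe sets had a negative log2 change, with a median of -0.21, against 4797 negative of 8494 and a median of -0.05 over all probe sets. Slc25a53, a carrier with no settled substrate, had a log2 change of -0.86 ± 0.25 (limma, adjusted p = 0.0286), Slc25a17, a carrier of the peroxisome, -0.56 ± 0.15 (adjusted p = 0.0145), and Slc25a15, the ornithine carrier, -0.53 ± 0.15 (adjusted p = 0.0215). Slc25a15 read 2967 and 2887 without GnRH and 1558 to 2434 at 100 nM, with no overlap. Slc25a25, the calcium-regulated ATP-magnesium/phosphate carrier, was the only mitochondrial carrier past the threshold on the higher side. It read 2933 and 3088 without GnRH and 3522 to 4805 at 100 nM, above both on all 10 arrays, and rose by 0.45 ± 0.14 on the log2 scale (adjusted p = 0.0337). At 10 nM it lay between 2998 and 6224, with a log2 change of 0.49 ± 0.14 (adjusted p = 0.073). The adenine nucleotide translocators Slc25a4 and Slc25a5 and the citrate carrier Slc25a1 did not pass, with log2 changes of 0.08 ± 0.13 for Slc25a4, 0.11 and 0.19 for the 2 probe sets of Slc25a5, and -0.10 and -0.36 for those of Slc25a1. Slc25a53, Slc25a17, Slc25a15 and Slc25a25 each lost the call without either unstimulated array (adjusted p up to 0.25, 0.195, 0.153 and 0.21), Slc25a25 also without tonic 100 nM A, 4 pulses 100 nM D or 2 pulses 100 nM D, Slc25a15 after quantile normalisation (0.0601), and Slc25a53 with no filter on signal (0.0618).

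The choline transporter-like gene Slc44a2 was the only lipid and choline carrier to pass at 100 nM. It read 1645 and 1751 without GnRH, 1640 and 1396 with 1 pulse, 1904 and 1265 with 2, 952 and 758 with 4, 923 and 877 with 8, and 872 and 827 with tonic hormone. The arrays with 4 or more pulses or tonic hormone lay at 758 to 952, below both unstimulated arrays, and those with 1 or 2 pulses at 1265 to 1904, with a log2 change of -0.56 ± 0.18 (limma, adjusted p = 0.0406). This call was lost with 1 of 7 arrays left out, among them both unstimulated arrays (adjusted p up to 0.258), without the 3 arrays of highest Gapdh ratio (0.103) and with no filter on signal (0.073).

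Amino acid carriers held no call against unstimulated cells in either dose or with tonic hormone, with 0 of 15 probe sets past the threshold and a median log2 change of 0.01 at 100 nM. Slc66a2, named outside the rule after its values were seen, lay at 0.59 with tonic hormone (limma, adjusted p = 0.0577). It passed after quantile normalisation (0.0249), with equal array medians (0.03) and with the letter as a replicate block (0.0126). With a floor or no filter on signal it did not. Slc3a2, the heavy chain of the large neutral amino acid exchangers and the member of highest mean signal, lay at 25318 to 39186 at 100 nM, with a log2 change of 0.10 ± 0.17 (limma, adjusted p = 0.744), and its partner Slc7a5 at 12386 to 18601, with 0.11 ± 0.16 (adjusted p = 0.705). Slc1a4, a carrier of alanine, serine and cysteine, gave 0.01 ± 0.21 (adjusted p = 0.974), and Slc1a5, a glutamine carrier, -0.36 ± 0.32 (adjusted p = 0.5). Slc38a2, the system A carrier that amino acid shortage induces, gave 0.07 ± 0.12 (adjusted p = 0.755). Slc7a11, the cystine importer, and Slc7a1 were left out by the signal rule with highest signals of 444.2 and 94.73.

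Among the rest, Slc20a1, a sodium-phosphate cotransporter, lay just short of the threshold at 0.38 ± 0.13 (limma, adjusted p = 0.0566). It passed after quantile normalisation (0.0324) and with the letter as a replicate block (0.021). The lactate carrier Slc16a1 gave 0.32 ± 0.18 (adjusted p = 0.255), the anion exchanger Slc4a2 0.06 ± 0.13 (adjusted p = 0.799), the sodium-calcium exchanger Slc8a1 0.03 ± 0.26 (adjusted p = 0.957), and the sodium-potassium-chloride cotransporter Slc12a2 -0.22 ± 0.20 (adjusted p = 0.502). Slc9a3r1, Slc9a3r2 and Slc4a1ap carry the prefix but are scaffold or adaptor genes, and none of them passed.

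With tonic hormone at 100 nM, 23 SLC probe sets differed from unstimulated cells, 7 higher and 16 lower, 18.5% against 20.4% of all probe sets (8.58% higher and 11.8% lower). The comparison shares its unstimulated arrays, and its tonic arrays, with the one over all 100 nM patterns, and 6 of the higher and 9 of the lower members passed in both. The calls that came in were Slc23a2, a vitamin C transporter, at 0.91 ± 0.24 (limma, adjusted p = 0.0101), and on the lower side the dicarboxylate carrier Slc25a10 (-0.90 ± 0.25), the oxoglutarate carrier Slc25a11 (-0.90 ± 0.26), Slc25a14 (-0.87 ± 0.26), the sodium-dependent multivitamin transporter Slc5a6 (-0.72 ± 0.23), Slc11a2 in probe set 104451_at (-0.58 ± 0.19), Slc35c2 (-0.45 ± 0.15) and, named outside the rule to complete the list after its values were seen, Slc25a28, a mitochondrial iron carrier (-0.55 ± 0.18, adjusted p = 0.0379). Mitochondrial carriers then held 8 of the 23 calls, 1 higher and 7 lower of 22. Slc25a10 read 1825 and 2032 without GnRH and 638 and 1403 with tonic hormone, and Slc23a2 read 3737 and 3615 against 7734 and 6445. The largest falls were those of Slc39a3 (-1.97 ± 0.38, adjusted p = 0.00103), Slc25a53 (-1.55 ± 0.33, adjusted p = 0.00226) and Slc37a4 (-1.39 ± 0.28, adjusted p = 0.00156), and with a floor in place of the added constant that of Slc39a3 was -3.23. The split depended on scaling: 13 higher and 12 lower with quantile-normalised values, and 10 each way once all arrays had equal medians, which also ended the calls of Slc35c2, Slc11a2, Slc25a28, Slc25a11, Slc25a17 and Slc25a14 (adjusted p 0.0565 to 0.105). Of the 8 mitochondrial calls 5 were kept with quantile normalisation and 4 with equal medians. With no filter on signal, Slc5a6 (0.0511) and Slc11a2 (0.0586) lost theirs. Leaving out tonic 100 nM A or unstimulated D left 14 calls each, and the calls of Slc6a4, Slc30a4, Slc35e4, Slc39a1, Slc39a3, Slc30a9, Slc37a4, Slc35b2 and Slc50a1 held without any 1 array.

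**Figure D3:**
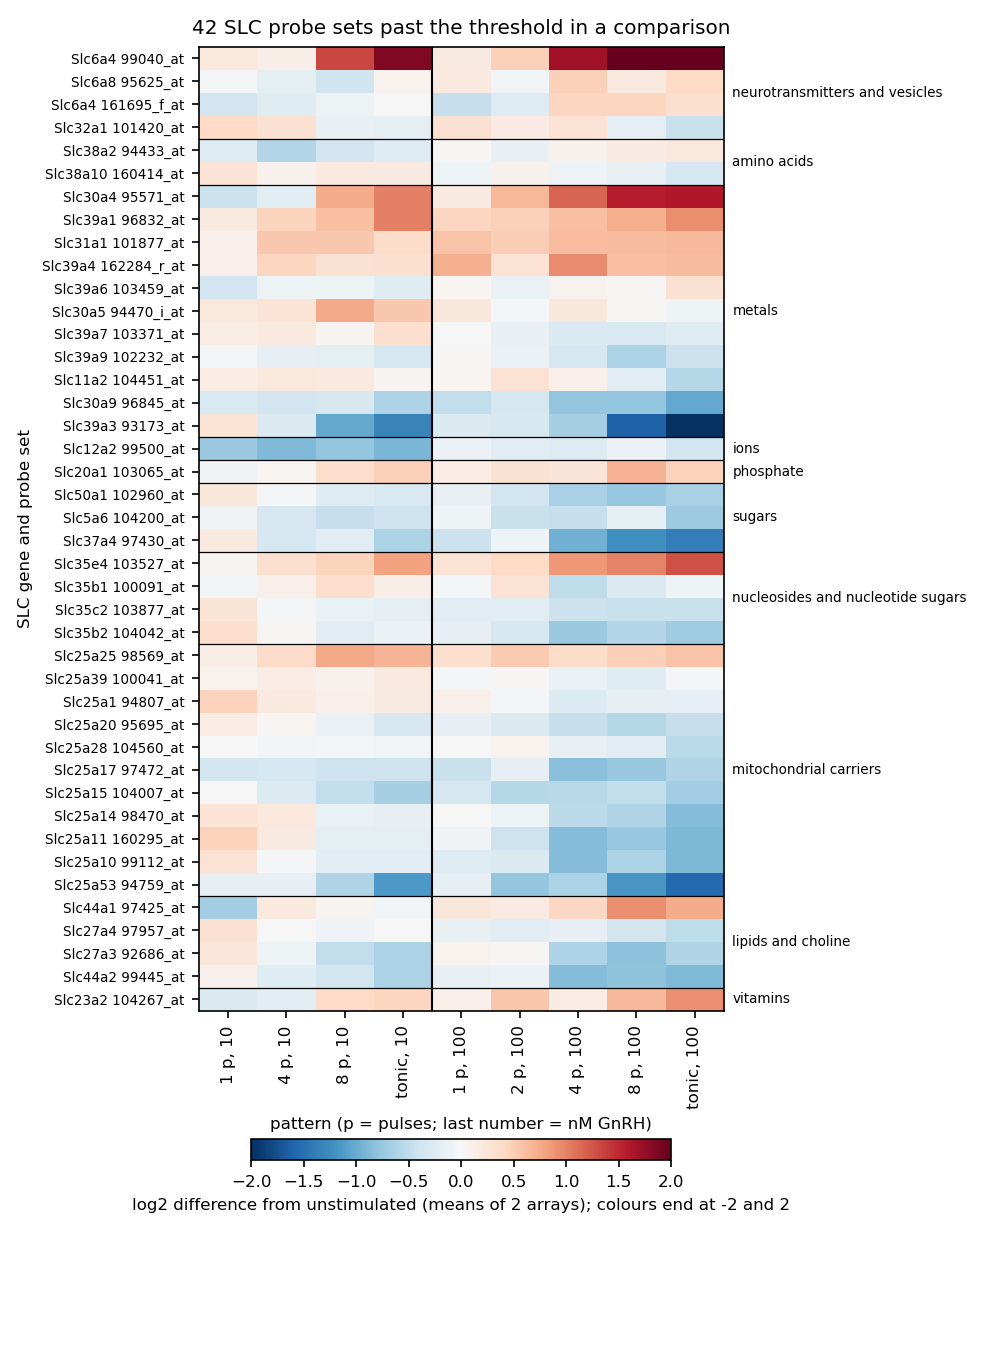
Difference of each of the 9 GnRH patterns from unstimulated cells, as log2 of group means of 2 arrays. The 42 SLC probe sets shown passed the threshold in at least 1 of the 10 comparisons. Rows are grouped by substrate class, red is higher and blue lower, and colours end at -2 and 2. For Slc6a4, Slc30a4 and Slc39a3 the 1-pulse column is paler than those of 8 pulses and tonic hormone at the same dose. Not every row does so. The mean signal of Slc12a2 was 7141 without GnRH, 4183 with 1 pulse at 10 nM and 5449 with tonic 100 nM.

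Taken pattern by pattern against unstimulated cells, the number of SLC probe sets past the threshold was 0 with 1 pulse and 0 with 2 pulses at 100 nM, then 15 with 4 pulses (12.1%, against 14.9% of all), 16 with 8 pulses (12.9%, against 14.3%) and 23 with tonic hormone. For all probe sets, 0% passed with 1 pulse and 0.624% with 2. The count at an unadjusted p under 0.05 over all probe sets was 665 with 1 pulse and 773 with 2 pulses. At 10 nM the SLC counts were 0 with 1 pulse and with 4 pulses, 2 with 8 pulses (Slc6a4 and Slc25a25) and 9 with tonic hormone, against 0%, 0.0589%, 2.23% and 7.41% of all probe sets (limma). All 9 patterns are read against the same pair of unstimulated arrays.

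The change per doubling of the pulse number was fitted over 1, 2, 4 and 8 pulses at 100 nM, on 8 arrays that include no unstimulated array. The slope passed for 11 SLC probe sets, 4 rising and 7 falling, 8.87% against 6.89% of all, where 3.67% rose and 3.21% fell (limma). Slc6a4 rose by 0.81 ± 0.08 on the log2 scale per doubling in 99040_at (adjusted p = 7.95e-06) and by 0.33 ± 0.07 in 161695_f_at (adjusted p = 0.00821), Slc30a4 by 0.47 ± 0.08 (adjusted p = 0.00101) and Slc35e4 by 0.27 ± 0.06 (adjusted p = 0.0119). Both Slc6a4 probe sets gave a rising slope, although they differed against unstimulated cells. Probe set 99040_at is a member only through arrays where it is high, among them those of 4 and 8 pulses at 100 nM. Its place among the 11 therefore supports nothing. In 161695_f_at the 1-pulse arrays at 100 nM read 490 and 446, below both unstimulated arrays at 858 and 573. The falling slopes were those of Slc39a3 (-0.43 ± 0.12), the fatty acid transport protein gene Slc27a3 (-0.33 ± 0.09), Slc37a4 (-0.33 ± 0.09), Slc44a2 (-0.27 ± 0.07), the zinc carrier Slc39a9 (-0.22 ± 0.06), Slc50a1 (-0.21 ± 0.05) and Slc35b2 (-0.17 ± 0.05). Slc27a3 read 1388 and 1295 with 1 pulse, 1196 and 1400 with 2, 592 and 985 with 4, and 590 and 701 with 8. No mitochondrial carrier passed, though 19 of 22 slopes were negative, against 5068 of 8494 over all probe sets. With 1 array left out at a time, 4 calls stood without the 1-pulse A, the 1-pulse D or the 8-pulse A array at 100 nM, 6 without the D array of 4 pulses and 7 without the A array of 2 pulses, and the slopes of Slc30a4 and of Slc6a4 in 99040_at held without any 1 array. Without the 3 arrays of highest Gapdh ratio, all of them arrays of 4 or 8 pulses at 100 nM, those same 2 slopes were the only ones past the threshold. The slope of Slc35b2 (adjusted p = 0.0485) was the least stable, lost in 21 of 28 alternatives, among them quantile normalisation (0.0724) and equal array medians (0.0996). With no filter on signal, the slopes of Slc39a9, Slc27a3, Slc39a3, Slc37a4 and Slc44a2 were lost (0.0572 to 0.0684). A floor in place of the added constant gave slopes of 1.24 for Slc6a4 in 99040_at and -0.65 for Slc39a3.

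At 10 nM, with 1, 4 and 8 pulses on 6 arrays, only Slc30a4 passed, at 0.35 ± 0.08 per doubling (limma, adjusted p = 0.0272), or 0.806% of SLC probe sets against 2.1% of all (1.55% rising, 0.542% falling). It read 2559 and 3419, 3028 and 3813, and 5576 and 8339 with 1, 4 and 8 pulses. With the letter as a replicate block, 6 SLC slopes passed (share of all probe sets not given). Its call was lost without 1 pulse 10 nM B (adjusted p = 0.327), 8 pulses 10 nM C (0.239) or 1 pulse 10 nM C (0.0819), and with array medians set equal (0.0533) or no filter (0.0555). The 11 members called at 100 nM all had a slope of the same sign at 10 nM, as did 550 of 585 probe sets over the whole array (94%), and the median ratio of the slopes, 10 nM to 100 nM, was 0.572 for those 11 and 0.54 over all called. The slopes of the 2 doses share no array. The difference of the slopes passed for 0 SLC probe sets and for 0.0118% of all (limma, 5 SLC probe sets at an unadjusted p under 0.05). The 3 of smallest p were Slc6a4 in 99040_at at 0.49 ± 0.12 (adjusted p = 0.264), Slc35b1, a carrier of the endoplasmic reticulum, at -0.28 ± 0.07 (adjusted p = 0.296) and Slc6a4 in 161695_f_at at 0.24 ± 0.10 (adjusted p = 0.923).

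**Figure D4:**
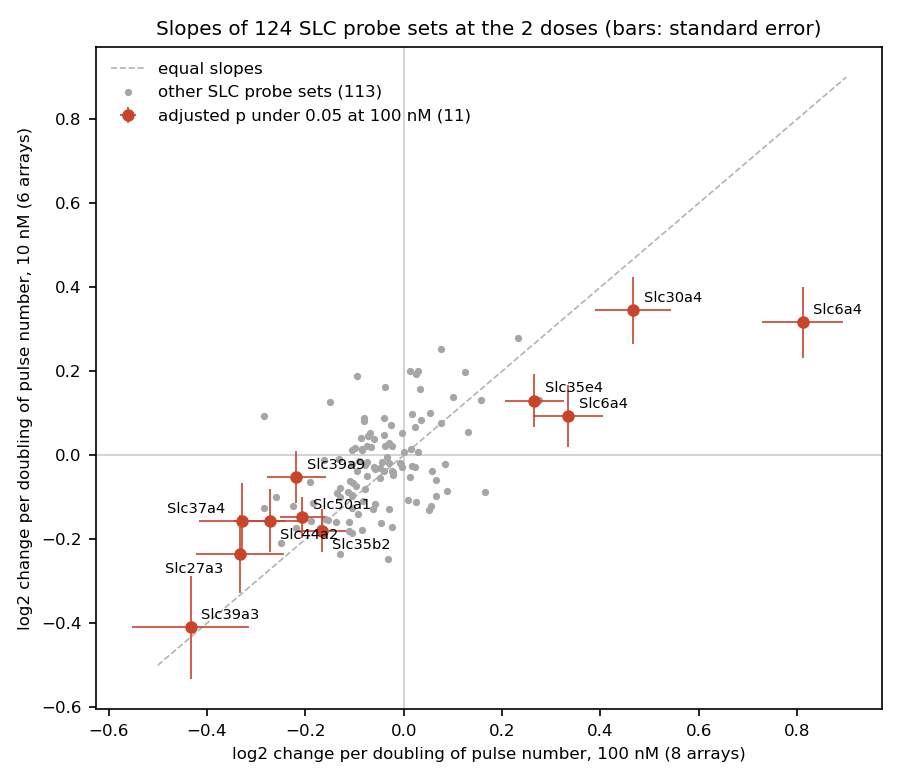
Log2 change per doubling of pulse number at 100 nM (horizontal, 8 arrays) and 10 nM (vertical, 6 arrays) for 124 SLC probe sets; red points with standard errors are the 11 past adjusted p 0.05 at 100 nM, and the dashed line marks equal slopes. All 11 lie in the quadrants where both slopes share a sign, with Slc6a4 (0.81 against 0.32) farthest below the line.

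Tonic hormone was also set against 8 pulses. At 100 nM and at 10 nM, 0 SLC probe sets passed (limma, 1 and 2 at an unadjusted p under 0.05), against 0.0118% and 0% of all. At 100 nM the 3 of smallest p were Slc5a6 at -0.55 ± 0.23, Slc30a5 in 94471_r_at at -0.46 ± 0.22 and Slc7a6 in 100417_at at -0.54 ± 0.26 (adjusted p = 0.997 each). At 10 nM they were Slc39a1 at 0.40 ± 0.17, Slc10a6 at 0.79 ± 0.35 and Slc6a4 at 0.51 ± 0.26 (adjusted p = 1 each). Slc39a1 read 4285 and 4271 with 8 pulses and 5762 and 5672 with tonic hormone at 10 nM. With 2 arrays on each side, these comparisons have wide errors.

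Over all 10 nM patterns, 3 SLC probe sets differed from unstimulated cells, 2.42% against 1.91% of all probe sets, of which 1.25% were higher and 0.659% lower (limma). Slc6a4 and Slc39a1 were higher, as given above, and Slc12a2, which brings chloride into the cell, was lower. Slc12a2 read 7981 and 6301 without GnRH and 2735 to 5130 on the 8 arrays at 10 nM, with no overlap, against 4929 to 7621 at 100 nM, a log2 change of -0.83 ± 0.20 (adjusted p = 0.0393). The calls of Slc6a4, Slc39a1 and Slc12a2 were all lost when any of 6 arrays was left out. These were either unstimulated array, either 1-pulse array at 10 nM, the B array of 8 pulses and the C array of 4 pulses. Without the tonic B array Slc39a1 and Slc12a2 lost theirs, and without the C array of 8 pulses Slc39a1 and Slc6a4 did. The adjusted p rose to 0.344 for Slc12a2, 0.267 for Slc39a1 and 0.215 for Slc6a4. The call of Slc12a2 was also lost with array medians set equal (0.066) and with no filter on signal (0.0663), and that of Slc39a1 with no filter (0.0503). With the letter as a replicate block, 8 SLC probe sets passed (share of all probe sets not given). Letters B and C hold every 10 nM array, so that letter and dose cannot be told apart.

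The same holds for 100 nM against 10 nM, where 31 SLC probe sets differed, 11 higher at 100 nM and 20 lower, 25% against 23.6% of all, where 10.9% were higher and 12.7% lower (limma). Higher at 100 nM were Slc6a4 (0.86 ± 0.13, adjusted p = 0.0002) and Slc30a4 (0.86 ± 0.12, adjusted p = 0.000123), Slc44a1, a choline transporter-like gene (0.70 ± 0.14), Slc12a2 (0.61 ± 0.13), Slc38a2 (0.50 ± 0.08), the creatine transporter Slc6a8 (0.45 ± 0.12), Slc35e4 (0.44 ± 0.10) and Slc39a4 in 162284_r_at (0.44 ± 0.12), while its other probe set 97320_at gave 0.10 (adjusted p = 0.668). The other 3 were Slc6a4 in 161695_f_at (0.36 ± 0.11), Slc39a6 and Slc23a2. The 20 lower calls included Slc37a4 (-0.75 ± 0.14), Slc25a11 (-0.71 ± 0.13), Slc25a10 (-0.62 ± 0.13), Slc35b2 (-0.57 ± 0.08), Slc25a14 (-0.55 ± 0.13) and Slc39a3 (-0.54 ± 0.19). Mitochondrial carriers held 7 of the calls, all lower, and 0 of these 7 stood without the 3 arrays of highest Gapdh ratio (adjusted p 0.0502 for Slc25a10 to 0.541 for Slc25a17). Slc38a2 read 3792 to 5631 at 10 nM, below both unstimulated arrays at 6047 and 6297 on all 8 arrays. On the 100 nM arrays of this comparison Slc38a2 read 6187 to 7845, with no overlap. The 2-pulse arrays left out read 4999 and 6164. Slc35b2 read 5211 to 8073 at 10 nM and 3229 to 5491 at 100 nM. With single arrays left out, Slc39a3 lost its call without any of 15 of the 20 arrays, and its log2 difference ran from -0.69 to -0.38. Calls were also lost without the 3 arrays of highest Gapdh ratio. Among them, with the log2 differences there, were Slc6a8 (0.32), Slc39a4 (0.38), Slc39a3 (-0.53), Slc39a6 (0.36), Slc23a2 (0.42) and Slc6a4 in 161695_f_at (0.25). With a floor in place of the added constant the difference of Slc39a3 was -0.85.

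Any difference among the 10 groups passed for 24 SLC probe sets, 19.4% against 18.5% of all (limma). Over the 10 comparisons, 42 SLC probe sets, for 41 genes, passed in at least 1, and 82 in none. Calls made only in the pattern-by-pattern comparisons above are not counted here. The share of all probe sets that passed in at least 1 comparison is not given. The count of 42 is therefore no result about SLC genes as a class.

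Other transport lists were read the same way, against 14.2% of all probe sets for 100 nM and 20.4% for tonic 100 nM. Of 19 ABC transporter probe sets tested, 1 was higher at 100 nM, Abca1 (1.20), which exports cholesterol, and 4 were lower (Abcd3 -0.60, Abcf3 -0.55, Abcf2 -0.48 and Abcf1 -0.43, on the log2 scale). Of 14 P-type ATPase probe sets, Atp13a3, a polyamine pump, was higher (0.95) and none lower. Of 20 for the V-type proton pump, Atp6ap2 was higher (0.36) and Atp6v0e2 lower (-0.60). Of 25 for the ATF4 amino acid response, Atf4 (0.63), Ddit3 (1.15) and Nupr1 (0.99) were higher and none lower (limma). Slc3a2, Slc7a5, Slc1a4 and Slc38a2, amino acid carriers that this response is known to induce, are those given above that did not pass. With tonic hormone, 2 ABC probe sets were higher and 3 lower, 2 P-type probe sets higher, 1 V-type higher and 1 lower, and 5 of the ATF4 list higher.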

How the data were processed

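Total RNA of 20 perifused LbetaT2 samples was hybridised to Affymetrix arrays. The authors deposited linear intensities per probe set, made with MAS5 per the submitters' processing notes. Every array has nearly the same trimmed mean. No source used here names the version, the chip description or the target of the scaling. Kept values (above 427 on at least 2 arrays) were analysed as log2(signal + 166.8), so that fold changes of low genes are understated. A group-means model was fitted across 8494 probe sets with limma 3.58.1 (R 4.3.3, mean-variance trend), with Benjamini-Hochberg adjustment over all of them and a threshold of 0.05. The script was tested on simulated data. Titles set the groups. Symbols came from GEO's platform annotation, where 10833 probe sets have 1 symbol, 396 several and 1193 are not listed.

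Genes are named by a rule: 24 genes by name, up to 3 members in each direction per comparison and class by log2 change, the 3 of smallest p where none passed, the 5 of highest mean signal, and all probe sets of a gene that differ in call. Substrate classes follow the family number, so that a few members sit apart from their solute (Slc5a6 carries vitamins, Slc25a17 is peroxisomal). Members, lists and tests were chosen with earlier results of these data known. Same-lettered arrays were compared by the correlation of their deviations from group means. For B and C all 6 pairs were over 0.1 (0.13 to 0.35), so the blocked value stands beside the 10 nM slope; for A and D 14 of 15 were (lowest 0.08). Alternatives covered scaling, low values, filters, the replicate block, the grouping, the 3 arrays of highest Gapdh ratio, other probe sets and each array left out. The number of arrays limits the precision.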

Additional observations from a re-analysis of the deposited data

How the results depend on the processing

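Counts of SLC probe sets past the threshold are given here where they left the range of 1.5 times the value reported. Apart from groups from the characteristics, counts from refits, here and above, come without the share of all probe sets in the same refit. A shift in such a count is therefore no result about SLC genes. With the letter as a replicate block, 26 passed for 100 nM and 8 for 10 nM against unstimulated cells, 19 for the slope at 100 nM, 6 for the slope at 10 nM and 42 for any difference among the groups; all 82 calls of single genes that were followed held, and Slc11a2 in 102642_at (adjusted p = 0.0186), Slc35a1 (0.0455) and Slc20a1 (0.021) were among those gained at 100 nM (limma). Quantile normalisation gave 2 and equal array medians 0 for the slope at 10 nM, and 76 and 72 of the 82 calls held. No filter gave 1 for 10 nM, 6 for the slope at 100 nM and 0 for that at 10 nM (66 calls held), and the stricter filter gave 7 for the slope at 100 nM. Without the 3 arrays of highest Gapdh ratio, the slope at 100 nM had 2 and 100 nM against 10 nM had 13 (55 calls held); any difference among the groups was not run there. Groups from the characteristics gave 0 throughout (limma), and the log2 change turned to 0.040 for Slc35b2, 0.022 for Slc37a4, 0.10 for Slc25a17, 0.14 for Slc44a2 and -0.084 for Slc39a4 at 100 nM, and to 0.075 for Slc5a6 and 0.13 for Slc25a17 with tonic hormone. In other probe sets the change turned to -0.069 (100 nM) and -0.15 (tonic) for Slc31a1, -0.025 for Slc39a4 and -0.18 (10 nM) for Slc6a4. With each array left out in turn, the counts ran from 4 to 18 for 100 nM, 0 to 3 for 10 nM, 14 to 25 for tonic 100 nM, 4 to 12 and 0 to 3 for the slopes at 100 and 10 nM, 25 to 33 for 100 nM against 10 nM and 16 to 25 for any difference, and stayed at 0 for the other 3 comparisons. The cause of these shifts was not tested. A floor in place of the added constant kept all 82 calls and moved 4 values of Slc6a4 (99040_at) and 3 of Slc39a3 by over 1.5 times. Probe sets near background, such as Slc6a4 99040_at in unstimulated cells, limit the size of their fold changes.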
